A study of Mus musculus with 12 samples.

Results

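The libraries described here compare mouse adult neural stem cells (NSCs) held in a BMP/FGF medium with the same cells growing in an EGF/FGF medium. They are 8 of the 12 RNA-seq libraries of the series, chosen by their labels alone: all 4 BMP/FGF libraries and all 4 EGF/FGF libraries, the other 4 having received BMP4 without FGF2 or EGF (BMP). The NSC lines had been derived from the subventricular zone of the lateral ventricle wall of mice aged between 6 and 8 weeks, ANS4 from the MF1 strain and BL6 from C57BL/6. Each condition holds 2 libraries of either line, and each line is a single culture derivation, so that line and strain cannot be told apart. EGF/FGF cells received EGF and FGF2, BMP/FGF cells received BMP4 and FGF2 without EGF for 3 days, and each factor was given at 10 ng/ml. The N2 and B27 supplements and laminin were common to both groups. Because FGF2 was present on both sides, the comparison is of EGF exchanged for BMP4, and loss of EGF cannot be told apart from gain of BMP4. The labels number the replicates and call them biological, without saying that they were separate cultures. The p-values therefore measure the spread between these libraries only, which may be partly technical.

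NSCs of the adult subventricular zone are mostly quiescent in the brain, out of the cell cycle but able to return to it, and they resemble astrocytes in many of the genes they use. EGF acts through receptor tyrosine kinases of the ErbB family and drives proliferation through the RAS and MAP kinase cascade, which FGF2 can also engage. BMP4 acts through serine/threonine kinase receptors and SMAD transcription factors, whose direct targets include the Id genes, and it is used in culture to bring NSCs out of cycle.

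Each EGF/FGF library summed to between 19160194 and 19451818 counts and each BMP/FGF library to between 18339010 and 18682887, and the 10 most abundant genes held 3.69 to 4.21% and 5.64 to 5.86% of the counts. Levels are given in CPM, a gene's counts divided by the TMM-scaled total of its library, always as ANS4 replicates 1 and 2 and then BL6 replicates 1 and 2. A gene is said to have risen or fallen in BMP/FGF at a Benjamini-Hochberg adjusted p (FDR) under 0.05 in edgeR's quasi-likelihood test, with the cell line as a covariate. Of 13312 genes tested, 10506 (78.9%) passed, 5449 of them higher in BMP/FGF (40.9%) and 5057 lower (38%). Most of these changes were modest: 3225 were smaller than 0.5 on the log2 scale and 3388 lay between 0.5 and 1. Beyond 1.5 on that scale, 1413 genes had risen (10.6%) and 810 had fallen (6.08%), and 370 rises and 215 falls exceeded 3. With limma on the deposited rlog values the rises beyond 1.5 numbered 768. The 4 libraries of BMP/FGF did not overlap the 4 of EGF/FGF for 10094 genes (75.8%). A call by itself therefore says little about any group of genes, and sizes and directions carry the description. The median change of all genes was 0.02, so values can be read as changes relative to the typical gene. In bulk libraries of this kind, fewer cells of a type and less of a given RNA per cell cannot be told apart.

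**Figure D1:**
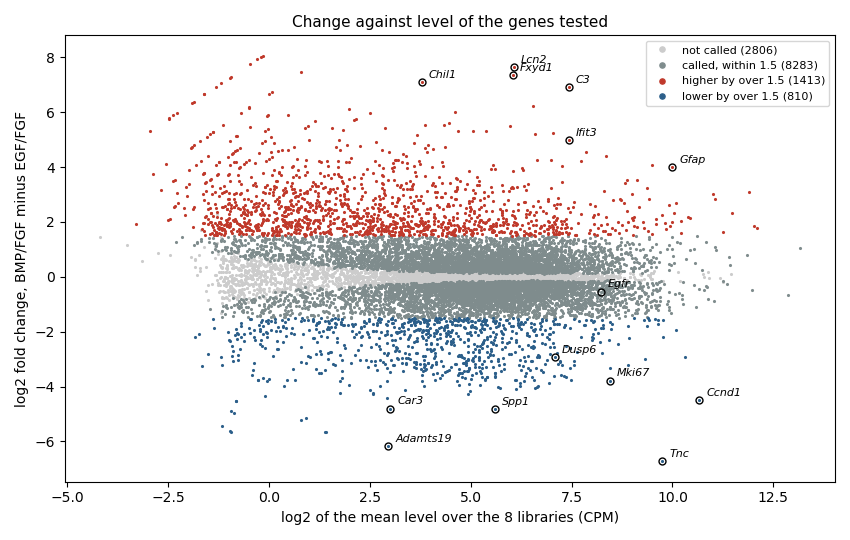
The log2 fold change between BMP/FGF and EGF/FGF (vertical axis) is plotted against the log2 of the mean level over the 8 libraries in CPM (horizontal axis), with 1 point for each of the 13312 genes tested. The 1413 genes higher by over 1.5 are red, the 810 lower by over 1.5 are blue, and named genes are circled. Tnc is the lowest of the points and also an abundant gene, and the straight streaks at the upper left are genes with almost no counts in EGF/FGF, whose fitted sizes depend on the prior count.

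Taking genes that averaged 5 CPM or more and whose libraries separated within both lines, the 8 largest rises included 3 secreted proteins known from reactive astrocytes. Lcn2, a secreted iron-siderophore binding protein, read 0.983, 1.08, 0.208 and 0.361 CPM in EGF/FGF and 136, 122, 136 and 138 CPM in BMP/FGF, a 200.3-fold rise (log2 7.65 ± 0.19 SE, adjusted p = 4.09e-16). The groups were far apart, and the ANS4 libraries stood above the BL6 libraries in EGF/FGF but not in BMP/FGF. Chil1, a chitinase-like secreted protein, went from 0.207, 0.310, 0.208 and 0.0516 CPM to 29.4, 26.7, 28.8 and 24.9 CPM, and C3, the central complement component, from 2.12, 2.69, 1.04 and 5.32 CPM to 312, 302, 377 and 377 CPM. Their log2 changes were 7.10 ± 0.18 and 6.93 ± 0.21. The size for Chil1 rests on 1 to 6 counts in each EGF/FGF library, and it was 4.55 with limma on the rlog values. Relative to its mean, the C3 level differed more between libraries in EGF/FGF than in BMP/FGF. Fxyd1, which encodes phospholemman, a regulator of the sodium pump, rose 162-fold from 0.828, 1.08, 0.468 and 0.826 CPM to 135, 124, 133 and 134 CPM. Lgi4, which encodes a secreted protein needed by glial cells of peripheral nerve, rose by 6.22, Cmtm5 by 6.00, Ddo, the D-aspartate oxidase, by 5.99 and Gbp2b, an interferon-induced GTPase, by 5.60 on the log2 scale. All 8 were near or below 5 CPM in every EGF/FGF library. Ddo had 1 to 7 counts in each of these, and its rise was 3.24 with limma on the rlog values. By GRCm38 coordinates Lcn2 spans chr2:32384633-32388252 on the minus strand.

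The largest fall was that of Tnc (chr4:63959785-64047015, minus strand), which encodes the extracellular matrix protein tenascin C. Tnc read 1610, 1663, 1779 and 1745 CPM in EGF/FGF and 15.6, 16.5, 16.5 and 15.5 CPM in BMP/FGF, a 106-fold fall (log2 -6.73 ± 0.08 SE, adjusted p = 3.51e-20). It went from one of the more abundant transcripts to a minor one, with the 4 libraries of each group close to each other. Ccnd1 (chr7:144929931-144939925, minus strand), which encodes cyclin D1, the G1 cyclin that couples mitogen signals to the cell cycle, was more abundant still in EGF/FGF at 3126, 3183, 3124 and 3041 CPM. In BMP/FGF it read 133, 131, 148 and 149 CPM, 22.4-fold lower. Spp1, which encodes the secreted phosphoprotein osteopontin, fell by 4.83 from 77.98, 69.7, 113 and 116 CPM to 3.99, 3.72, 3.02 and 2.29 CPM. Adamts19, a secreted metalloprotease, fell by 6.17, Car3, a carbonic anhydrase, by 4.80, Nrgn, which encodes the calmodulin-binding protein neurogranin, by 4.42, Tk1, thymidine kinase, by 4.28 and Syt13, a member of the synaptotagmin family, by 4.27.

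**Figure D2:**
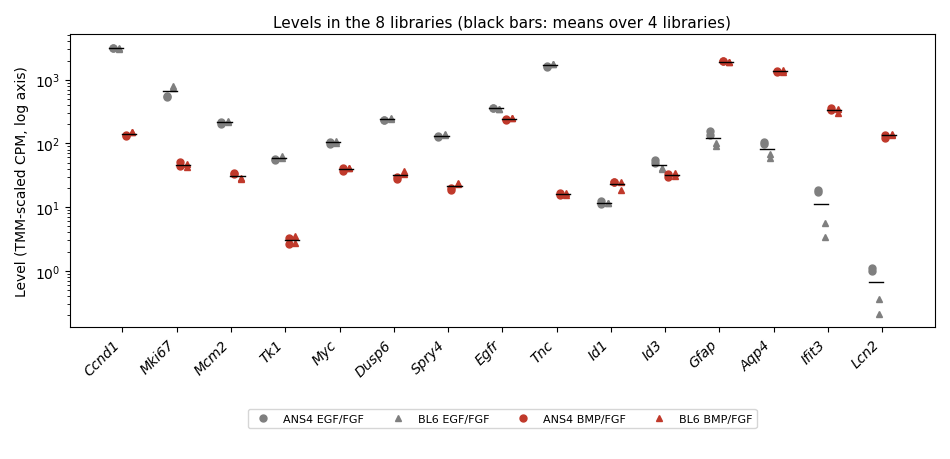
Levels of 15 genes are shown as TMM-scaled CPM on a log axis, with 1 symbol per library (circles ANS4, triangles BL6; grey EGF/FGF, red BMP/FGF) and black bars for the means of 4 libraries. Cell cycle, MAP kinase feedback and Tnc levels sit lower in red than in grey, Gfap, Aqp4, Ifit3 and Lcn2 higher, and Egfr and Id3 are shifted only slightly downward.

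In the pathway that lost its ligand, the receptor fell modestly while its regulators moved both ways. Egfr read 363, 362, 345 and 343 CPM in EGF/FGF and 244, 233, 247 and 248 CPM in BMP/FGF, a fall of 0.54 ± 0.07 on the log2 scale (adjusted p = 1.62e-06), and the groups did not overlap. Lrig1, a transmembrane protein that limits ErbB receptors, moved the other way, from 419.7, 454, 378 and 387 CPM to 849.9, 778, 853 and 834 CPM, a rise of 1.02 ± 0.07. Every BMP/FGF library was above every EGF/FGF library, and the ratio was 2.03. Its relative Lrig3 read 11.7, 11, 9.31 and 11.6 CPM and 13.8, 12.3, 11.6 and 13.3 CPM. These ranges overlapped, and the change of 0.23 lay at the threshold (adjusted p = 0.0496).

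Of the 17 tested genes of the EGF receptor family list, 8 rose and 6 fell (47.1% and 35.3%). Of all genes, 40.9% rose and 38% fell, and the median change of the list was 0.10. Its receptors diverged: Erbb4, a neuregulin receptor, rose from 0.155, 0.310, 0.156 and 0.207 CPM to 2.96, 2.59, 3.13 and 3.74 CPM, a change of 3.88 ± 0.32 at a low level. The ligands diverged as well. Tgfa, which encodes an EGFR ligand, rose by 2.46, from 1.55, 3.20, 1.56 and 1.81 CPM to 11.2, 11.3, 11.3 and 10.9 CPM, and Btc, the ligand betacellulin, by 0.78 at under 2 CPM. By contrast Hbegf, the heparin-binding ligand of EGFR, fell by 1.98 from 97.7, 99.9, 110.0 and 106 CPM to 22.9, 23.2, 28.7 and 30.5 CPM, and Socs5, a suppressor of cytokine signalling, fell by 1.20. Egf, Nrg2 and Rnf41 did not pass the test, and Areg and Ereg were too low to be tested.

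Negative feedback genes of the MAP kinase cascade fell by very different amounts while FGF2 was still present. Dusp6, Spry4 and Spry1 fell most, by 2.92, 2.64 and 2.39, whereas Spry2, Dusp4 and Dusp5 of the same families fell by 0.67, 0.60 and 0.49 and Spred1, whose groups overlapped, by 0.17. Dusp6, a phosphatase that inactivates ERK and is itself induced by ERK, read 233, 235, 246 and 243 CPM in EGF/FGF and 27.1, 29.8, 33.4 and 36.5 CPM in BMP/FGF, a fall of 2.92 ± 0.07 (adjusted p = 3.02e-16). Spry4, which encodes a Sprouty inhibitor of receptor tyrosine kinase signalling, went from 129, 126, 134 and 138 CPM to 19.8, 18.3, 23.1 and 23.7 CPM. For both genes the groups lay far apart, with BL6 above ANS4 in BMP/FGF. The ETS factors Etv4 and Etv5, transcriptional targets of FGF and EGF signalling, fell by 2.43 and 1.85, and Fosl1, an AP-1 subunit, fell by 4.24 from at most 9 CPM. Of the 24 tested genes of the FGF and MAPK feedback list, 15 fell and 7 rose, with a median change of -0.51. These are 62.5% and 29.2%, beside 38% and 40.9% of all genes.

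Immediate early genes of the same list moved in both directions. Fos, the AP-1 subunit, rose from 62.3, 67.2, 44.2 and 41.6 CPM to 160.1, 163, 234 and 253 CPM, a change of 1.90 ± 0.16. BL6 rose by 1.19 more on the log2 scale than ANS4 (adjusted p = 4.61e-06). Egr2, an early growth response factor, rose by 1.71, whereas Egr1 of the same family fell by 0.51. Fgfr1, an FGF2 receptor, did not pass (change 0.00 ± 0.06, adjusted p = 0.984), while Fgfr2 and Fgfr3 rose by 0.86 and 0.68.

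In the pathway that gained a ligand, 18 of the 28 tested genes of the BMP pathway list rose and 8 fell. These are 64.3% and 28.6%, beside 40.9% and 38% of all genes. The other 2 (Chrd and Smurf2) did not pass, and the median of the list was 0.63. Id4, which encodes an inhibitor of basic helix-loop-helix factors, rose from 2.38, 2.07, 1.30 and 2.53 CPM to 20.3, 18.5, 19.3 and 18.98 CPM, a 9.28-fold change (3.21 ± 0.13). Id2 rose from 43.5, 44.8, 47.5 and 50.8 CPM to 139.8, 131, 129 and 128 CPM, by 1.499. Id1, a commonly used readout of BMP signalling, read 11.3, 12.3, 11.4 and 11.5 CPM and 24.3, 24.4, 18.6 and 24.96 CPM, a rise of 0.98 in which BL6 replicate 1 stood below the other 3 BMP/FGF libraries. Id3 was the exception of the family: it read 48.7, 54.3, 39.6 and 41.2 CPM in EGF/FGF and 32.6, 29.1, 30.7 and 34.2 CPM in BMP/FGF, lower by 0.53 ± 0.11 (adjusted p = 4.31e-04).

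The largest change of the list was that of Atoh8, a helix-loop-helix factor induced by BMP in other tissues, which rose by 4.42 from 0.931, 1.08, 0.728 and 0.981 CPM to 21.7, 19.6, 20 and 18.9 CPM. Smad9, a receptor-regulated SMAD of the BMP branch, rose by 2.63 to between 3.61 and 4.36 CPM. The inhibitory SMADs stood near the limit of what these libraries resolve: Smad7 read 1.55, 1.60, 1.14 and 1.24 CPM and 2.21, 1.99, 2.51 and 2.29 CPM (change 0.70, adjusted p = 0.00253), and Smad6 read 0.569, 0.465, 0.728 and 0.465 CPM and 0.754, 0.808, 1.12 and 1.00 CPM (change 0.72, adjusted p = 0.0497). The Smad7 change did not pass in ANS4 alone (adjusted p = 0.143), and the Smad6 change did not pass under 14 of 20 alternative settings (adjusted p from 0.0212 to 0.258 over all 20). Bambi, a pseudoreceptor that dampens BMP and TGF-beta signals, fell by 1.13, and Bmp7, a BMP ligand, fell by 1.35. The Bmp7 change was -0.31 in ANS4 and -2.66 in BL6, a difference of -2.34 (adjusted p = 0.0209), and in ANS4 alone it did not pass (adjusted p = 0.467). Bmp4 and Bmp2 transcripts were too low to be tested.

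Cell cycle genes fell as a body. All 40 genes of the mitosis list fell, each by more than 1.5 (median -3.43, range -4.09 to -2.60), and all 50 of the DNA replication list fell, 41 of them by more than 1.5 (median -2.49). No library overlapped between the groups for any gene of these lists. Mki67 (chr7:135689784-135716361, minus strand), which encodes the proliferation antigen Ki-67, read 545, 533, 804 and 741 CPM in EGF/FGF and 50.8, 44.1, 46.9 and 42.9 CPM in BMP/FGF, 13.8-fold lower (-3.78 ± 0.16, adjusted p = 4.50e-13). It started higher in BL6 and ended at similar levels in both lines, so that the fall was larger in BL6 by 0.60 (adjusted p = 0.00842). Cdc20, an activator of the anaphase-promoting complex, fell by 4.09, Hmmr, a spindle-associated protein, fell by 4.04, Cdca8, the chromosomal passenger protein borealin, by 4.01 and Plk1, a mitotic kinase, by 3.96.

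Replication genes kept somewhat more of their level. Mcm2, a subunit of the replicative helicase, read 204, 219.5, 227 and 220.0 CPM and 33.99, 32.5, 27.5 and 29.1 CPM, and Pcna, the sliding clamp of DNA polymerase, 404, 405, 433 and 458 CPM and 90.1, 83.6, 87.6 and 87.3 CPM. Their falls were 7.06-fold and 4.87-fold, with every BMP/FGF library under every EGF/FGF library. Tk1, which salvages thymidine in S phase, led the list, falling 19.4-fold from 56.2, 55.1, 59.2 and 62.9 CPM to 3.23, 2.59, 2.68 and 3.52 CPM. Orc1 of the origin recognition complex fell by 3.99, Pole2 of DNA polymerase epsilon by 3.59 and the helicase loading factor Mcm10 by 3.501.

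Promoter sequences are shown for these 2 lists because their members moved together and their promoters differ in known cell cycle letters. RefSeq promoters of the GRCm38.p6 build, 250 bases before to 50 after each annotated start, were searched on both strands for the E2F letters TTTCCCGC or TTTGGCGC, for the cell cycle homology region TTTGAA and for CCAAT. The E2F letters stood in 13 of 49 DNA replication promoters (26.5%, from 40 of 50 genes with an entry), in 0 of 35 mitosis promoters (33 of 40 genes) and in 514 of all 32851 promoters (1.56%). TTTGAA stood in 25 of 35 mitosis promoters (71.4%), in 7 of 49 replication promoters (14.3%) and in 5878 of all (17.9%). CCAAT stood in 27 of 35 mitosis promoters (77.1%), 29 of 49 replication promoters (59.2%) and 12289 of all (37.4%). These shares describe letters in a window of 300 bases and were not tested. Members with large falls whose letters lie outside annotated exons are given here 5′ to 3′ in 100 bases, E2F letters or TTTGAA in either orientation in capitals. Mcm6 (chr1:128359725-128359824, minus strand), a helicase subunit that fell by 2.56, holds the E2F letters 2 times. Pola1 (chrX:93632266-93632365, minus strand), the catalytic subunit of DNA polymerase alpha, fell by 2.31. Of the mitosis list, Ccnb2 (chr9:70421696-70421795, minus strand), a cyclin B, fell by 3.94, Mki67 (chr7:135716470-135716569, minus strand) by 3.78 and Kif2c (chr4:117178850-117178949, minus strand), a microtubule-depolymerizing kinesin, by 3.65.
Mcm6: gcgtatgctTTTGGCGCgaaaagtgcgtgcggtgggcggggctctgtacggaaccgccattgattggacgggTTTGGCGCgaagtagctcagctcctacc
Pola1: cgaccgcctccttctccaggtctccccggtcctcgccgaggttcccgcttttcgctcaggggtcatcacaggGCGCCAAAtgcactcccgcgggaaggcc
Ccnb2: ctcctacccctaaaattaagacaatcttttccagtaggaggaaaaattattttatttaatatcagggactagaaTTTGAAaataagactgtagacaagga
Mki67: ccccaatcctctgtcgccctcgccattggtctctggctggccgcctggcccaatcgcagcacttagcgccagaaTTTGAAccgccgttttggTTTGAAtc
Kif2c: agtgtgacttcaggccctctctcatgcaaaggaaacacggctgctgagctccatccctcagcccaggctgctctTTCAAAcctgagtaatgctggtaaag
In the Mki67 window the capitals appear in 2 places, with ccaat and its reverse attgg in lower case before them.

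The regulators of G1 moved in both directions. Of 28 genes tested, 11 rose and 14 fell (39.3% and 50%, beside 40.9% and 38% of all genes), with a median of -0.27. Cdkn1c, Cdkn2a and Foxo6 did not pass. Cyclin D2 (Ccnd2) fell from 748, 716, 766 and 744 CPM to 279.5, 279.5, 294 and 289 CPM, 2.60-fold, a smaller fall than that of Ccnd1. Cdk2, the kinase partner of cyclins E and A, fell by 1.76 and Rbl1, the pocket protein p107, by 2.38. The inhibitors of cyclin-dependent kinases did not move as a set. Cdkn1b, which encodes p27, rose from 205, 192, 183 and 184 CPM to 343, 359.9, 362 and 352 CPM, by 0.89 ± 0.06. Cdkn1a, which encodes p21, fell from 340.2, 331, 280.5 and 263 CPM to 141, 143, 142 and 128 CPM, by 1.13 ± 0.07. Cdkn1c, which encodes p57, read 3.31, 2.58, 1.61 and 2.48 CPM and 2.42, 2.64, 2.85 and 2.68 CPM, overlapping, with a change of 0.08 ± 0.21 (adjusted p = 0.729).

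The Myc family split. Myc, the growth-promoting transcription factor, fell from 98.99, 105, 109.8 and 102 CPM to 40.9, 37.3, 40.9 and 41.3 CPM, by 1.38 ± 0.14 and without overlap. Mycn, its neural relative, rose from 2.85, 3.25, 3.85 and 4.18 CPM to 11.2, 10.4, 7.49 and 8.10 CPM, by 1.38 ± 0.16, and Mxi1, which encodes a repressor that competes with MYC for MAX, rose by 1.83. Even after its rise, every BMP/FGF library held less than 12 CPM of Mycn.

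All 30 genes of the ribosome biogenesis list fell, 12 by more than 1.5, with a median of -1.44. The box C/D ribonucleoprotein genes Nop56, Nop58 and Fbl fell by 2.17, 2.04 and 1.93, and Dkc1, the pseudouridine synthase dyskerin, by 2.04. For Nop56 this was from 131, 135, 160.5 and 141 CPM to 33.2, 30.4, 33.4 and 28.8 CPM. No gene of this list overlapped between the groups.

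Serine, one-carbon and nucleotide synthesis fell in 22 of 24 genes (median -1.13). The folate enzymes led, with Mthfd2 going from 35.7, 39.4, 39.4 and 40.5 CPM to 4.42, 3.18, 3.24 and 3.46 CPM and Shmt1 and Mthfd1l falling by 2.92 and 2.45, and Umps of pyrimidine synthesis fell by 2.32. The 2 genes that rose are both enzymes of serine synthesis itself: Phgdh, its first step, from 296, 316, 266 and 288 CPM to 396, 399, 389.9 and 391 CPM (0.44), and Psph, its last step, by 0.64. Psat1, the step between them, was among the 22 that fell.

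Glycolysis genes fell in 13 and rose in 4 of 19 tested (68.4% and 21.05%, beside 38% and 40.9% of all genes), with a median of -0.36. Isoforms of the same step moved in opposite directions. Hk2, a mitogen-responsive hexokinase, fell from 24.7, 26.2, 27.99 and 28.97 CPM to 2.10, 2.91, 3.13 and 2.46 CPM, by 3.34, whereas Hk1 rose by 0.68. Pfkm, the muscle-type phosphofructokinase, rose from 100.5, 104, 91.3 and 82.9 CPM to 455, 407, 411 and 424 CPM, by 2.17, and the liver and platelet types Pfkl and Pfkp were among those that fell. Ldha fell by 0.98 and Ldhb rose by 1.00. Pkm, pyruvate kinase, fell by 1.09, Pgk1, phosphoglycerate kinase, by 1.11 and Gpi1, glucose phosphate isomerase, by 1.07, while Slc16a1, a lactate transporter, rose by 1.68.

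Lipid genes divided by pathway. Fatty acid oxidation genes rose in 23 of 28 and fell in 0 (median 0.62). Pdk4, which holds back pyruvate oxidation, rose from 2.17, 2.17, 1.72 and 2.53 CPM to 21.4, 19.02, 22.01 and 22.1 CPM, the acyl-CoA synthetases Acsl6 and Acsl3 by 2.21 and 1.75, and Acad11, an acyl-CoA dehydrogenase, by 1.87. Fatty acid synthesis genes rose in 9 and fell in 5 of 16 (56.25% and 31.25%, beside 40.9% and 38% of all genes), with a median of 0.49. Those that rose most act on or esterify fatty acids: Gpam, the glycerol phosphate acyltransferase, went from 162, 182, 130.0 and 137 CPM to 783, 756, 800.2 and 824 CPM, and the desaturases Fads2, Fads1 and Scd1 rose by 1.56, 1.48 and 1.10. Fasn, Acaca and Acly, which build the chain, and the elongase Elovl6 were among those that fell, Acly by 0.76 and Elovl6 by 0.92.

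Sterol synthesis genes fell in 20 of 25 (median -0.59). Fdps, which makes farnesyl pyrophosphate, fell from 321, 336, 216 and 240.0 CPM to 105, 99.9, 105 and 110.3 CPM. Acat2, an acetyl-CoA acetyltransferase, fell from 294, 329, 243 and 226 CPM to 138, 125, 121 and 119 CPM, by 1.10. Hmgcs1, the HMG-CoA synthase at the head of the pathway, was 1 of 2 genes that rose: it read 2867, 2742, 1947 and 2033 CPM and 3295, 3283, 3052 and 2983 CPM, a change of 0.43 ± 0.10 (adjusted p = 9.26e-04). Its ANS4 libraries stood above its BL6 libraries in EGF/FGF, and the rise was larger in BL6 by 0.37. The other, Tm7sf2, overlapped between the groups (change 0.25, adjusted p = 0.0384). The sterol regulatory letters TCACNCCAC stood in 1 of 20 promoters of the list (17 of 25 genes with an entry), that of Hmgcs1, and in 408 of all 32851 (1.24%). That window (chr13:119690143-119690242, plus strand, letters in capitals) is shown as the only promoter of the list found to hold them. Hmgcs1 moved against its list, and a link between the letters and its direction was not tested.
Hmgcs1: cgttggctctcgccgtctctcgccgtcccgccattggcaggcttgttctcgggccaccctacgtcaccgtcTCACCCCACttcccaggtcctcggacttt
Its capitals begin 137 bases before the annotated start.

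Lysosomal genes rose in 25 and fell in 2 of 32 tested (median 0.76). The 3 rises past 1.5 were those of cathepsins, lysosomal proteases: Ctsf by 2.74, Ctsb from 572, 554, 469 and 452 CPM to 2197, 2146, 2416 and 2281 CPM and Ctsl by 1.61. Among the other cathepsins, Ctsa, Ctsd and Ctsz rose by 1.30, 1.17 and 0.56, and Ctsh did not pass (0.29). Scarb2, a lysosomal membrane protein, rose by 1.37. The 2 that fell, Gla and Glb1, encode galactosidases, and they fell by 0.90 and 0.61.

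**Figure D3:**
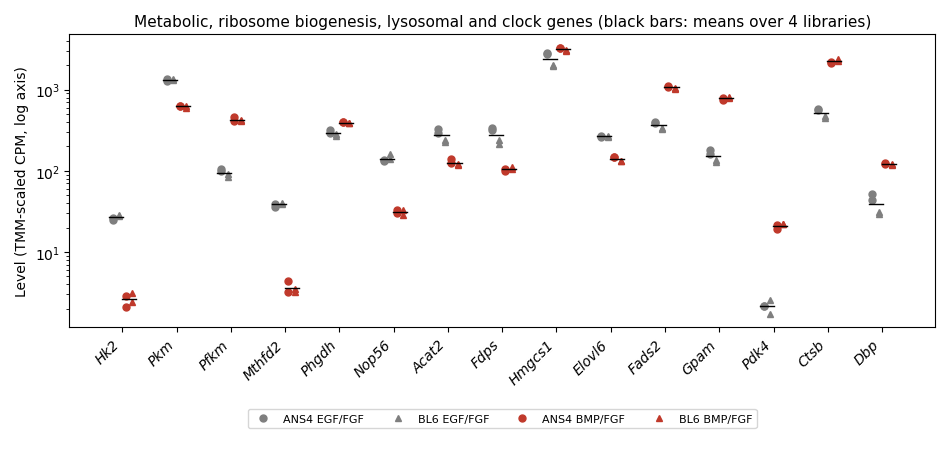
Levels of 15 metabolic, ribosome biogenesis, lysosomal and clock genes are shown as TMM-scaled CPM on a log axis, with 1 symbol per library (circles ANS4, triangles BL6; grey EGF/FGF, red BMP/FGF) and black bars for means of 4 libraries. Hk2, Mthfd2, Nop56, Acat2, Fdps and Elovl6 sit lower in red, Pfkm, Fads2, Gpam, Pdk4 and Ctsb higher, and Phgdh and Hmgcs1 only slightly higher.

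Genes used by astrocytes and quiescent NSCs rose in 24 of 28 tested and fell in 2, 19 of them rising by more than 1.5 (median 1.97). Gfap (chr11:102887336-102900912, minus strand), the intermediate filament of astrocytes and quiescent NSCs, read 155, 133, 92.1 and 103 CPM in EGF/FGF and 1979, 1963, 1893 and 1869 CPM in BMP/FGF, 16.1-fold higher (4.005 ± 0.13, adjusted p = 8.42e-15). Aqp4, the astrocytic water channel, went from 104, 97.2, 58.6 and 68.9 CPM to 1324, 1383, 1413 and 1329 CPM. In EGF/FGF both were higher in the ANS4 libraries than in the BL6 libraries. In BMP/FGF the lines overlapped for Aqp4, and for Gfap ANS4 was still the higher, by a smaller ratio. Sparcl1, a secreted matricellular protein of astrocytes, rose by 5.24, more in ANS4 (5.81) than in BL6 (4.71). Clu, the chaperone clusterin, rose by 4.57 and Slc1a2, the glutamate transporter GLT-1, by 4.41. Cd9, a tetraspanin of quiescent NSCs, rose from 254, 282, 222 and 223 CPM to 434, 469, 464 and 467 CPM, by 0.91.

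The 2 that fell were Fabp7, a brain lipid binding protein of radial glia, and Nfib, a nuclear factor I family member. Fabp7 read 2356, 2595, 2502 and 2184 CPM and 1528, 1469, 1306 and 1238 CPM, lower by 0.81 ± 0.14, and Nfib fell by 1.16 while Nfia and Nfix of the same family rose by 0.32 and 0.30. Itm2a and Cyp26b1 did not pass.

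Transporters and channels of the astrocyte membrane rose in 20 of 21 (median 1.28). Slc14a1, a urea transporter, rose from 0.880, 0.982, 0.832 and 0.465 CPM to 21.1, 23.1, 26.5 and 22.8 CPM, and Kcnn2, a calcium-activated potassium channel, by 3.94. The sodium pump subunit Atp1b2 was abundant in both groups and rose by 2.32, to between 4580 and 4830 CPM. Kcnj10, the inward rectifier potassium channel Kir4.1, was the member that did not rise: its ranges overlapped at 944, 921, 815 and 765 CPM and 778, 771, 734 and 738 CPM, a fall of 0.18 (adjusted p = 0.0270).

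Genes of NSC identity did not move together: 10 of 20 rose and 7 fell (beside 40.9% and 38% of all genes), with a median of 0.15. Sox2, which maintains neural stem cells, read 499, 492, 456 and 456 CPM and 658, 714, 662 and 653 CPM, higher by 0.50 ± 0.06. Sox21 rose by 1.06, Vim, the intermediate filament vimentin, by 0.81 and Msi1, an RNA-binding protein of neural progenitors, by 0.68. Nes, the intermediate filament nestin, fell from 535, 498, 625 and 618 CPM to 112, 112, 119 and 119 CPM, 4.92-fold, and Hmga2, a chromatin protein of young stem cells, fell 17.7-fold from 52.4, 48.3, 72.9 and 66.9 CPM to 3.34, 2.91, 3.58 and 3.63 CPM.

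Activated progenitor genes fell in 11 of 18 and rose in 7 (61.1% and 38.9%, beside 38% and 40.9% of all genes), with a median of -0.70. The oligodendrocyte lineage factors Olig2 and Olig1 fell, Olig2 from 599.6, 619, 608 and 564 CPM to 293, 292, 270.1 and 269 CPM and Olig1 by 1.28, and so did Sox11 by 1.19 and Tead2, a partner of YAP, by 1.20. Dll3, a Notch pathway ligand, rose by 1.38 and Gsx1, a homeobox factor, by 0.76.

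Of 18 tested Notch pathway genes, 10 fell and 3 rose (55.6% and 16.7%, beside 38% and 40.9% of all genes), with a median of -0.24. Jag1, a Notch ligand, fell from 46.1, 44.9, 50.9 and 53.2 CPM to 10.9, 11.3, 12.96 and 11.6 CPM, by 2.06, Hes1, a Notch target, by 1.272, the receptor Notch1 by 0.85 and Lfng, which modifies it, by 0.82. Hes5, another Notch target, read 9.21, 12.7, 7.54 and 7.49 CPM and 6.19, 7.22, 6.70 and 7.09 CPM and was lower by 0.42 (adjusted p = 0.0272), a call that did not hold under 5 of 20 alternative settings, among them BL6 alone (-0.14, adjusted p = 0.395). The 3 that rose were the ligand Dll4 by 1.46, Hey2 by 1.60 and the coactivator Maml2 by 0.27.

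**Figure D4:**
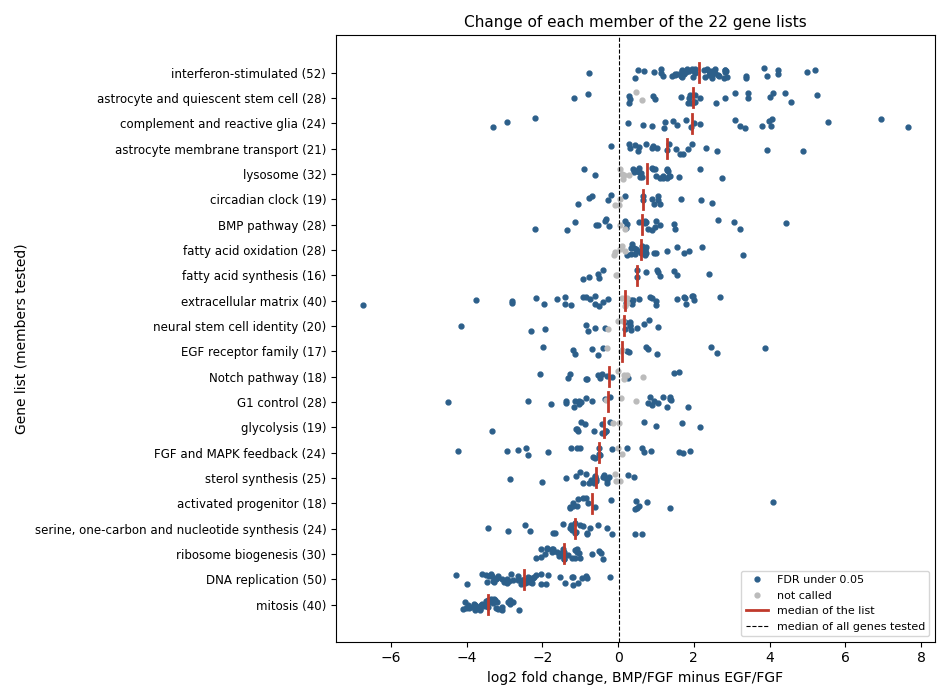
Each point is the log2 fold change between BMP/FGF and EGF/FGF (horizontal axis) of 1 tested member of the 22 gene lists (vertical axis, members tested in brackets), blue where it passed the test and grey where it did not. Red bars are list medians and the dashed line is the median of all genes at 0.02; mitosis stands lowest at -3.43 and the interferon-stimulated list highest at 2.14.

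Interferon-stimulated genes, which act against viruses and present antigen, had the highest median of the 22 lists. Of 52 tested, 51 rose, 42 by more than 1.5 (median 2.14), and 4 (Ifi44l, Oas1a, Oas3 and Zbp1) were too low to be tested. Ifit3 (chr19:34583531-34588731, plus strand), an interferon-induced tetratricopeptide protein, read 18.2, 17.1, 5.57 and 3.41 CPM in EGF/FGF and 354, 330.4, 305 and 341 CPM in BMP/FGF, 31.9-fold higher (5.00 ± 0.26, adjusted p = 6.29e-12). Its near copy Ifit3b followed at 7.61, 9.14, 1.67 and 2.53 CPM and 197, 197, 184 and 173 CPM. The 2 genes share long identical stretches, so reads could have been divided between them and each value alone is uncertain, and the same holds for Gbp2 and Gbp2b. Gbp2, an interferon-induced GTPase, rose from 29.6, 33.2, 13.4 and 13.2 CPM to 382, 378, 414 and 432 CPM and Uba7, the enzyme that activates ISG15, by 4.22. The single gene that fell was Oasl1, a negative regulator of Irf7 translation, at 3.52, 2.63, 2.44 and 2.01 CPM and 1.56, 1.56, 1.17 and 1.84 CPM (change -0.78, adjusted p = 0.00391). Transcription factors of the response were among those that rose, Irf7 by 2.48 and Irf9 by 1.68.

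The lines differed in the level of this list in EGF/FGF more than in BMP/FGF. Summed over the 52 tested genes, the list read 1209 and 1200 CPM in the ANS4 and 847 and 855 CPM in the BL6 libraries of EGF/FGF. In BMP/FGF it read 4591 and 4542 CPM in ANS4 and 4556 and 4560 CPM in BL6, so that the ranges of the lines overlapped there. The change differed between the lines for 26 members at an adjusted p under 0.05, all 26 larger in BL6, beside 663 of all genes (4.98%). For all 26, both ANS4 libraries stood above both BL6 libraries in EGF/FGF, and in BMP/FGF this held for 9, while the reverse held for 6. These 26 were picked for a larger change in BL6 in the same libraries, so their order partly follows from that choice.

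Promoters of this list are shown because its members rose together. The letters GAAANNGAA of the interferon-stimulated response element, on either strand, stood in 22 of 50 promoters (44%, from 43 of 56 genes with an entry) and in 2812 of all 32851 (8.56%), a share that was not tested. The Ifit3b window (chr19:34607733-34607832, plus strand) is identical to that of Ifit3 and holds 3 matches. The Isg15 window (chr4:156200868-156200967, minus strand), of a ubiquitin-like protein that rose by 2.83, holds 3 matches that overlap each other. The Igtp window (chr11:58199451-58199550, plus strand), of an immunity-related GTPase that rose by 2.66, holds 1. Matches in either orientation are in capitals.
Ifit3b: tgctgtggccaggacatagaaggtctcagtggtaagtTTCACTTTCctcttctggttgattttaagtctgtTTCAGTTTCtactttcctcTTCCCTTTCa
Isg15: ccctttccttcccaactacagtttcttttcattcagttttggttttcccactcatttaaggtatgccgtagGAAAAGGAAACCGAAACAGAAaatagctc
Igtp: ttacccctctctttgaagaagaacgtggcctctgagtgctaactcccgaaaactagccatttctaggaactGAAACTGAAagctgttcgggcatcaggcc
The Igtp match begins 34 bases before the annotated start.

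Complement and reactive glia genes rose in 21 of 24 tested and fell in 3 (median 1.96). Beside Lcn2 and C3, Serpina3n, a secreted protease inhibitor of reactive astrocytes with close copies whose reads may be shared, rose from 0.880, 1.03, 0.676 and 0.775 CPM to 40.8, 38.3, 39.3 and 38.9 CPM, and C4b, complement component 4, from 21.3, 18.96, 15.3 and 14.1 CPM to 273, 264, 306 and 311 CPM. Microglia also make complement proteins in the brain. Of the 12 microglial markers listed, 7, such as Aif1 and C1qa, were not among the genes read here, so their levels are unknown. The receptors Csf1r and Cx3cr1 averaged 0.039 and 0.32 CPM in EGF/FGF and 0.027 and 0.29 CPM in BMP/FGF, and Tmem119 averaged 0.013 and 0.069 CPM. The other markers were Itgam, an integrin of myeloid cells that averaged 9.89 and 5.43 CPM and fell by 0.86, and P2ry12, a purinergic receptor that averaged 1.37 and 2.41 CPM and rose by 0.79. The 5 markers measured summed to 9.56 to 14.7 CPM in EGF/FGF and 7.15 to 9.38 CPM in BMP/FGF. The 3 genes that fell all encode carriers of insulin-like growth factors. Igfbp2 read 689, 688, 568 and 619 CPM and 59.8, 65.5, 63.7 and 68.1 CPM, Igfbp3 read 2066, 2010, 2494 and 2468 CPM and 302, 302, 289.8 and 289 CPM, and Igfbp4 fell by 2.21. Igfbp5 of the same family rose instead, from 58.5, 56, 59.5 and 60.3 CPM to 198, 205, 199 and 214 CPM, 3.48-fold.

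Extracellular matrix genes were evenly divided, with 18 of 40 rising and 18 falling (45% each, beside 40.9% and 38% of all genes). Their median was 0.18, and 8 rises and 7 falls were past 1.5. Beside Tnc, Col18a1, a basement membrane collagen, fell from 322, 339, 337 and 343 CPM to 24.2, 27.9, 23.7 and 23.2 CPM and the fibronectin gene Fn1 fell by 2.80. Itgb4, an integrin subunit that binds laminin, rose by 2.70, the laminin subunit Lamb2 by 2.00, and the matrix metalloprotease inhibitor Timp3 by 1.94.

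Of 19 circadian clock genes, 11 rose and 5 fell (57.9% and 26.3%, beside 40.9% and 38% of all genes), with a median of 0.65. Dbp, a clock output factor, rose from 43.6, 51.6, 31.3 and 29.7 CPM to 122, 125, 122 and 118 CPM, and its relative Hlf by 2.20. Rora, a nuclear receptor that activates Arntl, rose by 2.48 and the repressor Bhlhe41 by 1.11, while Clock fell by 1.06 and the repressor Nfil3 by 0.77. Arntl, the partner of Clock, did not pass (change 0.02 ± 0.08, adjusted p = 0.819).

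Markers of other cells were read in the same libraries. Oligodendrocyte lineage markers summed to 221 to 282 CPM in EGF/FGF and to 872 to 902 CPM in BMP/FGF. Of the 7 tested, 6 rose and 1 (Cspg4, by 0.46) fell, beside 40.9% and 38% of all genes. Gpr17, a receptor of committed precursors, rose by 5.51 to a mean of 122.9 CPM. Mean levels of Cnp went from 181 to 461 CPM and of Bcas1 from 9.18 to 22.25 CPM. Those of Enpp6 went from 0.18 to 2.08 CPM and of Mbp from 0.49 to 2.99 CPM. Sox10, Mog and Mag were too low to be tested. They averaged 0.14, 0.065 and 0.013 CPM in EGF/FGF and 0.30, 0.11 and 0.17 CPM in BMP/FGF. Neuroblast markers summed to 644 to 666 CPM and 1065 to 1161 CPM, of which Map2, a cytoskeletal gene, made up a mean of 554 and 808 CPM. Dcx, which encodes doublecortin of migrating neuroblasts, rose by 5.31 to a mean of 49.9 CPM. Of the 15 neuroblast markers tested 13 rose and 2 fell, beside 40.9% and 38% of all genes. Among those that rose were the homeobox factors Dlx1 (2.13) and Dlx2 (2.39), Tubb3 (1.96), Nrxn3 (3.76) and Gad1 (1.77). The 2 that fell were Gad2 by 1.499 and Sp8 by 1.40. Stmn2, Dlx6 and Rbfox3 were too low to be tested. Ependymal markers summed to 65.7 to 81.3 CPM and 209 to 221 CPM, mostly the ciliogenesis factor Foxj1, which rose by 1.61. Endothelial markers summed to 39.9 to 48.3 CPM and 19.3 to 23.9 CPM, mostly the VEGF receptor Flt1, which fell by 1.42. Of the other endothelial markers tested, Vwf rose by 2.43, from a mean of 0.867 CPM to 4.73 CPM, and Kdr did not pass (-0.0059). Mural and fibroblast markers summed to 38.6 to 44.3 CPM and 72.7 to 82.2 CPM. Of the 8 markers listed for adult NSCs, 6 rose and 2 (Nes and Fabp7) fell, beside 40.9% and 38% of all genes. Gfap, Slc1a3, Sox9 and Fabp7 are also members of the astrocyte and quiescent stem cell list. The 8 markers therefore do not tell NSCs from astrocytes. The part of other cell types in the results above was not tested.

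The 2 lines gave closely similar changes. Across 13252 genes the changes in ANS4 and BL6 had Pearson r = 0.945 and the same sign in 91.2%, a description across genes, which are not independent replicates. The difference between the lines in the change passed for 663 genes (4.98%), 420 more positive and 243 more negative in BL6, and for 22 it exceeded 1.5. That count depended on single libraries: it lay between 184 and 369 when any of the 8 was left out, and was 1685 in a fit of the 8 libraries alone. Lysosomal genes were among those that differed, with 13 of 32 rising more in BL6 and 0 more in ANS4, and all 13 had both ANS4 libraries above both BL6 libraries in EGF/FGF. In BMP/FGF that order held for 1 of the 13, and both BL6 libraries stood above both ANS4 libraries for 11. As the 13 were picked by the line difference in the same libraries, their order partly follows from that choice. The change passed in opposite directions in the 2 lines, with a line difference, for 24 genes. Examples chosen after their values were seen are Cd109, a GPI-anchored coreceptor that binds TGF-beta, which changed by -0.46 in ANS4 and by 0.42 in BL6, and Ints6l, a relative of an Integrator subunit, which changed by 0.35 and -0.74.

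**Figure D5:**
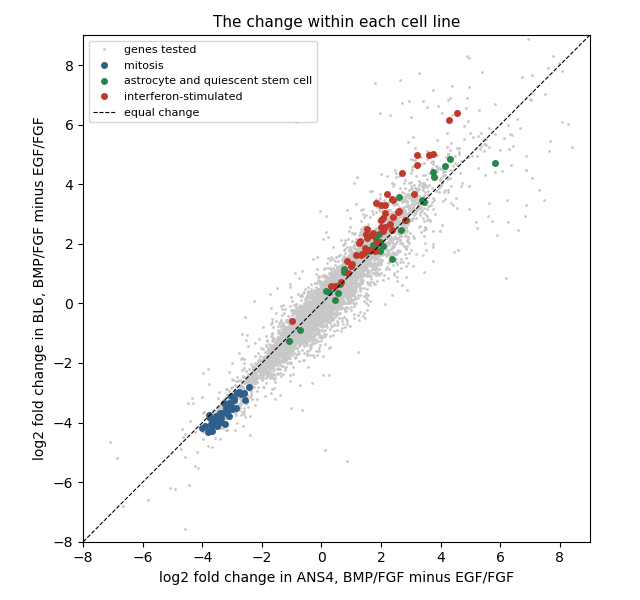
The log2 fold change between BMP/FGF and EGF/FGF in ANS4 (horizontal axis) is plotted against that in BL6 (vertical axis), with 1 grey point per gene tested, coloured points for 3 gene lists and a dashed line for equal change. Mitosis genes (blue) and interferon-stimulated genes (red) sit farther from 0 in BL6 than in ANS4, with medians of -3.68 against -3.25 and of 2.45 against 1.84.

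The BMP libraries give the same genes without FGF2. BMP/FGF differed from BMP for 5513 genes (41.4%), 2674 higher and 2839 lower, and every comparison among the 3 conditions shares libraries with the others. The medians of BMP/FGF and of BMP below are both taken against the same 4 EGF/FGF libraries, so they are not independent and are set side by side only. The medians of BMP/FGF against EGF/FGF and of BMP against EGF/FGF were -3.43 and -2.48 for mitosis, -2.49 and -2.001 for DNA replication, -1.44 and -1.44 for ribosome biogenesis and 1.97 and 1.68 for the astrocyte and quiescent stem cell list. For the interferon-stimulated list they were 2.14 and 0.77, and 51 of 52 members passed as higher with FGF2 than without. For sterol synthesis they were -0.59 and -1.46, with 23 of 25 higher with FGF2, Hmgcs1 by 1.63. For the FGF and MAPK feedback list they were -0.51 and -0.73, with 17 of 24 higher with FGF2, Dusp6 by 1.30 and Spry4 by 0.98. Ccnd1 was higher with FGF2 than without by 0.76 and Cdkn1a by 0.93, whereas Mki67 was lower by 0.90 and Ccnd2 by 1.18.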

How the data were processed

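Total RNA of 12 libraries was sequenced, of which 8 were compared. The authors trimmed reads with Trim Galore 0.5.0, quantified transcripts with kallisto 0.44.0 against mm10 and summed them per gene with tximport, and deposited estimated counts as whole numbers. They also deposited regularized log2 values (rlog) made with DESeq2 1.27.32. Reads of the MF1 line were quantified against the same mm10 transcriptome, and the effect of this was not tested.

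Here the counts entered edgeR 4.0.16 (R 4.3.3) with filterByExpr, TMM scaling and glmQLFit, all 12 libraries in 1 model of condition plus line. Quasi-likelihood p-values were adjusted by Benjamini-Hochberg over all 13312 genes tested, and 4053 were too low to test. The line difference came from an interaction of line and condition. At totals of 18339010 to 19451818 counts, a gene at or under 3 counts in a library was taken as at the floor.

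Named genes were a roster of 30 genes, the 8 largest rises and falls with a mean of at least 5 CPM, and the 4 largest changes of each list in its main direction and 2 in the other with a mean of at least 1 CPM. A gene named outside this rule (such as Egr1, Fgfr1, Hk1, Ldha, Fn1 and Arntl) was chosen after its values were seen. The members and lists were chosen with earlier results of these data known. Single values of some genes are not reported here. Levels were summarised over libraries. No column lacked a matching sample (0 unmatched). Alternatives used DESeq2 1.42.0 size factors or Wald test, limma 3.58.1 on the rlog values, no filter, other model terms, single lines and each library left out. On simulated data, edgeR recovered 100 of 100 genes changed by 1 and 100 of 100 changed by 2 on the log2 scale with 13 false calls among 13181 genes, DESeq2 99 of 100 and 100 of 100 with 14, and the test of the line difference 85 of 100 and 96 of 100 with 9 among 13173. Only these few genes were changed, all averaging above 1 CPM and as many up as down. The simulation therefore cannot show how scaling and calls behave when most genes change.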

Additional observations from a re-analysis of the deposited data

Results flagged for a closer look

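In 10 of 296 groups of 4 libraries, 1 library stood apart from the other 3 by Dixon's test, which chance alone gives in about 1 in 20 groups. In BMP/FGF, ANS4 replicate 2 was the low library for Myc (37.3 CPM, others 40.9 to 41.3), Lcn2 (122 CPM, others 136 to 138) and Bambi (2.59 CPM, others 3.56 to 3.63), and the high one for Sox2 (714 CPM, others 653 to 662). ANS4 replicate 1 was low for Cd9 (434 CPM, others 464 to 469) and high for Clu (462 CPM, others 439 to 440.3). BL6 replicate 2 was low for Cdkn1a (128 CPM, others 141 to 143) and BL6 replicate 1 for Id1 (18.6 CPM, others 24.3 to 25.0). In EGF/FGF, ANS4 replicate 2 was high for Tgfa (3.20 CPM, others 1.55 to 1.81) and ANS4 replicate 1 low for Pkm (1283 CPM, others 1332 to 1341). None of these gaps brought a library of one condition into the range of the other.

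For 29 named genes the change differed between the lines in the interaction test of edgeR, the values being BL6 minus ANS4 on the log2 scale with adjusted p-values under 0.05 over all genes. In 22 the BL6 change was the more positive. These were the interferon-stimulated genes Ifit3 (1.89), Ifit3b (1.85) and Gbp2 (1.40), the secreted reactive glia genes Lcn2 (1.93) and C4b (0.65), and the immediate early gene Fos (1.19). Astrocyte genes among them were Aqp4 (0.68), Gfap (0.49), Clu (0.53) and Slc1a2 (0.47), and lysosomal ones were Ctsb (0.40), Ctsl (0.44) and Scarb2 (0.45). Lipid genes were Fdps (0.60), Hmgcs1 (0.37), Gpam (0.44) and Scd1 (0.42), and the rest were Sox21 (0.67), Lamb2 (0.62), Dbp (0.61), Timp2 (0.44) and Mxi1 (0.35).

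In 7 the BL6 change was the more negative. These were the ligand Bmp7 (-2.34), the secreted proteins Spp1 (-1.17), Sparcl1 (-1.09) and Igfbp3 (-0.35), and the cell cycle genes Mki67 (-0.60), Plk1 (-0.59) and Rbl1 (-0.45).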

How the results depend on the processing

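Counts of genes that rose or fell stayed within 1.5 times of those reported under every alternative run, with 1 exception: limma on the rlog values gave 768 rises past 1.5 in place of 1413, and the cause was not tested. With any 1 of the 8 libraries left out, rises numbered 5198 to 5343, falls 4936 to 5045, rises past 1.5 1427 to 1482 and falls past it 806 to 876. A test against a change of 1.5 itself (glmTreat) gave 978 rises and 589 falls. The count of line differences was the least stable, at 1685 with the 8 libraries alone and 184 to 369 with 1 library left out, beside 663.

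Replicate numbers did not pair the libraries: the deviations of same-numbered BMP/FGF and EGF/FGF libraries had r = -0.011 in ANS4 and -0.0055 in BL6 over 13312 genes (-0.18 and 0.0073 over the 9967 well expressed). With the replicate block, rises and falls numbered 5341 and 4984, and 1414 and 810 past 1.5, and line differences 538. Crossing the 2 ANS4 BMP/FGF numbers, an alternative chosen after seeing the data, gave 5370, 5001, 1414 and 810.

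Of 151 named genes that changed, 142 did so in the same direction under all 20 alternatives. Lrig3 and Smad6 lost their calls under 14, Tm7sf2 under 13, Kcnj10 under 6, Hes5 under 5 and Smad7, Bmp7, Btc and Oasl1 under 1 each. Cdkn1c, which did not pass (0.08), changed sign in ANS4 alone (-0.22) and without BL6 EGF/FGF replicate 1 (-0.11), in a range of -0.11 to 0.27 over the fits with 1 library left out. Genes near 1 CPM rest on about 20 counts per library, and their sizes carry the widest errors.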
